A study of Mus musculus with 12 samples.

Results

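The small leucine-rich proteoglycans around lumican were examined as 10 genes in 3 clusters of the mouse genome. Lum, Dcn, Kera and Epyc lie side by side on chromosome 10, Ecm2, Aspn, Omd and Ogn on chromosome 13, and Prelp and Fmod on chromosome 1. The family was chosen by the H3K27ac values of the old and young libraries, in which the region over the start of Lum was already known to be lower in old cells. Member regions were the called regions of each mark that overlapped the gene body of a member with 50 kb added on each side. They were 31 of 31617 H3K27ac regions, of which 13 lay on chromosome 10, 7 on chromosome 13 and 11 on chromosome 1. They were also 12 of 28047 H3K27me3 regions, of which 7 lay on chromosome 10, 0 on chromosome 13 and 5 on chromosome 1.

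The libraries were made by CUT&RUN, in which an antibody directs a nuclease to a chromatin mark and the released DNA is sequenced. The cells were mouse mesenchymal stem cells, multipotent stromal cells with bone, cartilage and fat fates, cultured at 2% oxygen throughout. The groups were young mice aged 3 to 5 months and old mice aged 18 to 22 months, with no genotype or treatment that set them apart, and 3 libraries per age and mark. The labels give no strain, sex or tissue of origin, and do not say whether the 3 samples of an age came from separate animals, so p-values measure only the spread between samples. The cells of a sample were divided between the antibody against H3K27ac, acetylation found at active promoters and enhancers, and the antibody against H3K27me3, the methylation laid down by Polycomb.

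Small leucine-rich proteoglycans are secreted proteins of the extracellular matrix, built of leucine-rich repeats and mostly carrying glycosaminoglycan chains. Many of them bind collagen and regulate how its fibrils form, how thick they become and how they are spaced, and several bind growth factors such as TGF-beta. Stromal cells, tendon, cartilage, bone and the cornea are known sources of them.

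H3K27ac libraries held 2750953 to 5541429 reads and H3K27me3 libraries 3622108 to 9947515 reads, and old replicate 2 was the shallowest in both marks. Member regions held 2 to 618 reads per library in H3K27ac and 5 to 309 in H3K27me3, and a count under the floor of 3 reads cannot be told from none. Values below are the normalised signal, the deposited signal of a region after scaling between libraries. Fold changes are log2 values of old against young on the scale of log2(signal + 0.5), and their SE is that of the fit. All 10 MSC markers examined (Ly6a, Pdgfra, Pdgfrb, Eng, Thy1, Nt5e, Cd44, Itgb1, Vcam1 and Prrx1) carried H3K27ac over their transcription start site (TSS). Of 8 haematopoietic markers only Cd68 and Csf1r did, and of 5 endothelial markers only Pecam1. The region of Cd68 also covered the TSS of other genes, and Ptprc, Spi1 and Cdh5 were among the markers with no H3K27ac region there.

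The promoters of the members are shown because the start sites of the chromosome 13 genes carried H3K27ac alone and those of Kera and Epyc carried H3K27me3 alone. RefSeq promoter windows of 300 bases, 250 before and 50 after the start, were matched for 8 of the 10 members on GRCm38.p6, and not for Lum and Dcn. The 250 bases before the start of Epyc (chr10:97643818-97644067, plus strand), Aspn (chr13:49544193-49544442, plus strand), Omd (chr13:49582212-49582461, plus strand) and Ogn (chr13:49607765-49608014, plus strand) are printed 5′ to 3′, with each CpG in capitals.
Epyc: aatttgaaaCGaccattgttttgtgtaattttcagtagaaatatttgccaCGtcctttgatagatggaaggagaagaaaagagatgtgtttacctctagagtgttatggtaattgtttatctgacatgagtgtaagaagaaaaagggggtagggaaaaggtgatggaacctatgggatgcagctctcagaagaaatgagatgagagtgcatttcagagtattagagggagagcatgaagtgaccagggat
Aspn: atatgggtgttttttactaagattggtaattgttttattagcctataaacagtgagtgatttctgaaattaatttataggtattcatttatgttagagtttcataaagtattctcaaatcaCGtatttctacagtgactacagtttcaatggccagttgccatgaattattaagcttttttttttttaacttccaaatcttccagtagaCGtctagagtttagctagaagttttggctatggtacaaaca
Omd: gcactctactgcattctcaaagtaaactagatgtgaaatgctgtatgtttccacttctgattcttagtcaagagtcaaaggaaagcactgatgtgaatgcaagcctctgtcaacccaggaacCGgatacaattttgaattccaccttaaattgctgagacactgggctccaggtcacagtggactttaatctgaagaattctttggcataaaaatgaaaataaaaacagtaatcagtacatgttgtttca
Ogn: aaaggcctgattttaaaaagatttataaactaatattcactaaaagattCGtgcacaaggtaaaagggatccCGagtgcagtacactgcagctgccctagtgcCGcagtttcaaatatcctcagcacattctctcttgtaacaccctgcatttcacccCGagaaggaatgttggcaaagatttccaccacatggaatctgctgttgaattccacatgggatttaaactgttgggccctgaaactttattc
These stretches hold 2 CpG in Epyc, 2 in Aspn, 1 in Omd and 4 in Ogn, and none overlaps an annotated exon of its gene. Over the whole window of 300 bases, the 6 matched members under H3K27ac had 1 CpG (Omd), 3 (Aspn and Fmod), 4 (Ogn and Ecm2) and 7 (Prelp). The median of the 13234 windows under H3K27ac alone was 20 CpG, and 21.2% of those windows had 7 or fewer. All 6 therefore lay in the CpG-poor part of acetylated promoters. Kera with 1 CpG and Epyc with 2 were under H3K27me3, and the 9506 windows under that mark alone had a median of 5.

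Acetylation was lower in old than in young cells most of all at Lum. Summed over regions, the ages differed more in the chromosome 10 cluster than in the chromosome 13 and chromosome 1 clusters. Single genes did not all follow that order. Prelp on chromosome 1 (log2 fold change -0.45) was close to Dcn on chromosome 10 (-0.51), and the region nearest Kera on chromosome 10 differed less (-0.28). H3K27ac regions covered the TSS of 8 of the 10 members, all but Kera and Epyc. Because the H3K27ac difference between ages led to the choice of the family, its values are a description and carry no test.

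Lum encodes lumican, a keratan sulphate proteoglycan that regulates collagen fibril diameter and is known for its role in corneal transparency. Its H3K27ac region (chr10:97564001-97569000, 5 kb) covered the TSS with exon, UTR and intron sequence of Lum and was listed by the authors as a region of young samples. The normalised signal was 19.6, 9.23 and 10.5 in young replicates 1 to 3 and 5.58, 1.57 and 2.55 in old replicates 1 to 3. Each old value was under each young value, with a log2 fold change of -1.94 (SE 0.36) between means of 13.1 ± 5.65 and 3.23 ± 2.09 (SD, n = 3). The old values rested on 14, 2 and 5 reads, against 60, 16 and 32 reads in the young libraries. Leaving out each replicate in turn, the log2 fold change ranged from -2.37 to -1.59. In the limma fit over all regions 0.0822% were called at an adjusted p under 0.05, 16 lower and 10 higher in old, and among the 31 member regions 1 was, that of Lum. The call repeats the values the family was chosen by and is no test of it, and it was not made without young replicate 1, young replicate 3 or old replicate 2.

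Dcn encodes decorin, a proteoglycan that decorates collagen fibrils and binds TGF-beta. The region over its TSS (chr10:97466501-97487000, 20.5 kb) had a normalised H3K27ac signal of 64.4, 31.2 and 38.8 in the young replicates and 33.1, 26.0 and 31.1 in the old replicates. Young replicate 1 stood well above the other libraries and the groups overlapped, with a log2 fold change of -0.51 (SE 0.19), or -0.22 without young replicate 1. Upstream of Dcn, an intergenic region 21.6 kb from its TSS (chr10:97455001-97458000) had the second largest difference among members. Its signal was 10.1, 7.50 and 9.54 in young and 5.58, 1.57 and 3.57 in old libraries, all old below all young, with a log2 fold change of -1.35 (SE 0.36), or -0.93 without old replicate 2, in which it rested on 2 reads.

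Kera encodes keratocan, a keratan sulphate proteoglycan of the cornea, and Epyc encodes epiphycan, a proteoglycan of growth plate cartilage. Neither had an H3K27ac region over its TSS, and the nearest lay 15.4 kb and 15.1 kb away, both intergenic. The region nearest Kera (chr10:97583001-97591500) had a signal of 20.6, 8.66 and 7.89 in young and 10.8, 7.86 and 9.17 in old libraries. Only young replicate 1 was high there, and the log2 fold change was -0.28 (SE 0.29) with that library and 0.14 without it. The region nearest Epyc (chr10:97623001-97629000) had a signal of 18.6, 10.4 and 11.8 in young and 10.8, 7.08 and 4.59 in old libraries, a log2 fold change of -0.85 (SE 0.28). There the groups overlapped by old replicate 1 alone.

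Over the whole chromosome 10 cluster, 12 of 13 H3K27ac regions were lower in old, with a median log2 fold change of -0.51 and a range from -1.94 to 0.09. In 3 of the 13, each old library was below each young one, beside 7.42% of all H3K27ac regions. Over all regions 50.4% were lower in old, with a median of 0.00, a balance that the scaling between libraries largely sets. On the signal as deposited the median of all regions was -0.12, and 13 regions of the cluster were lower in old.

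**Figure D1:**
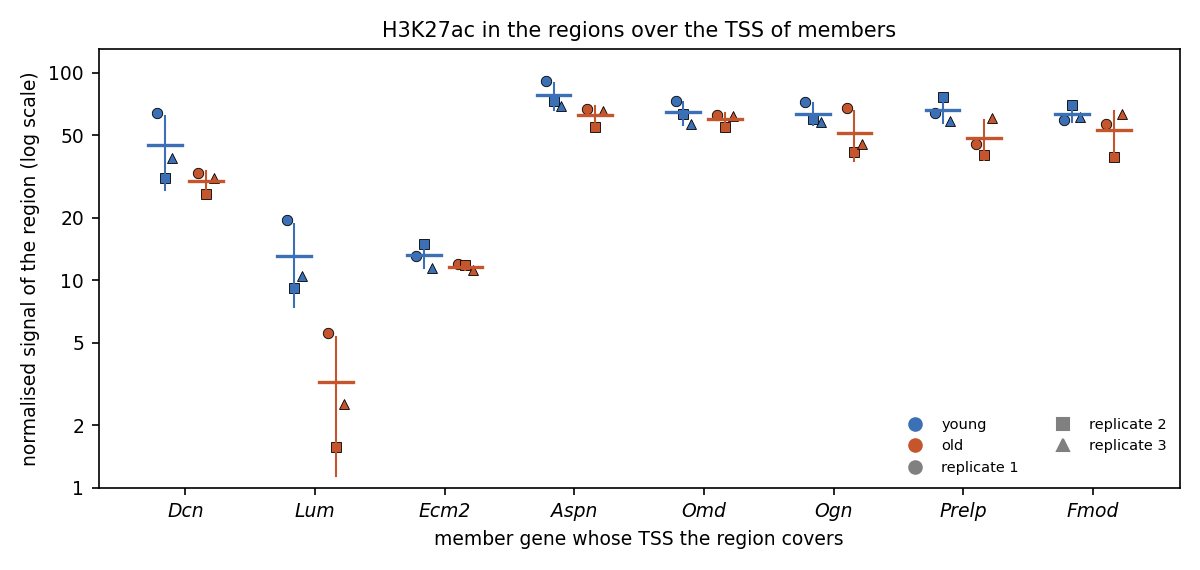
Normalised H3K27ac signal (log axis) of the region over the TSS of each of 8 members, by library; blue marks are young and red marks old, the shape gives the replicate, and lines give the mean and SD of 3 libraries. At Lum the old libraries (1.57 to 5.58) sit below the young libraries (9.23 to 19.6), and at Aspn they do so by a narrow gap. At Dcn, Omd, Ecm2, Ogn, Prelp and Fmod the ages overlap.

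The chromosome 13 genes showed smaller differences than Lum. Aspn encodes asporin, a relative of decorin that binds collagen and TGF-beta, and its TSS lay in a region of 26.5 kb (chr13:49538001-49564500). The normalised H3K27ac signal there was 91.5, 73.3 and 69.1 in young and 67.0, 55.0 and 65.7 in old libraries. All old libraries lay below all young ones by a narrow gap, and the log2 fold change was -0.31 (SE 0.12). Ogn encodes osteoglycin, also called mimecan, and its region (chr13:49605501-49632000) had 72.5, 60.0 and 58.2 in young and 67.4, 41.7 and 45.4 in old libraries. The log2 fold change of Ogn was -0.33 (SE 0.14), with old replicate 1 inside the young range. Omd encodes osteomodulin, a keratan sulphate proteoglycan of mineralised matrix, and Ecm2 a matrix protein with leucine-rich repeats. The region over Omd (chr13:49570501-49590000) had 73.2, 63.5 and 56.9 in young and 62.6, 55.0 and 61.7 in old libraries, and the log2 fold change was -0.10 (SE 0.12). The region over Ecm2 (chr13:49501501-49507500) had 13.1, 15.0 and 11.5 in young and 12.0, 11.8 and 11.2 in old libraries, and the log2 fold change was -0.16 (SE 0.23). At both genes the ages overlapped. In the chromosome 13 cluster 6 of 7 regions were lower in old, with a median log2 fold change of -0.16 and a range from -0.33 to 0.05. In 1 of the 7, that of Aspn, all old libraries lay below all young ones, as in 7.42% of all H3K27ac regions. All 4 genes lie within introns or exons of the larger gene Cenpp, and signal over them cannot be given to one gene rather than the other.

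On chromosome 1, Prelp encodes a proteoglycan that anchors basement membranes to connective tissue, and Fmod encodes fibromodulin, a regulator of collagen fibril maturation in tendon. The region over Prelp (chr1:133908001-133924000) had a normalised H3K27ac signal of 64.0, 76.2 and 58.9 in young and 45.4, 40.1 and 60.6 in old libraries, a log2 fold change of -0.45 (SE 0.14). The region over Fmod (chr1:134033001-134051500) had 59.1, 69.8 and 61.2 in young and 56.6, 39.3 and 63.2 in old libraries, a log2 fold change of -0.28 (SE 0.14). In both regions old replicate 3 lay inside the young range, and old replicate 2 was the lowest library. The cluster had 6 of 11 regions lower in old and a median of -0.02. Its range ran from -0.45 at Prelp to 0.80 in a short intergenic region of 2 kb (chr1:133889001-133891000), the 1 region of the cluster where all old libraries lay above all young ones, as did 7.09% of all H3K27ac regions.

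Read numbers were also divided by library total and by the true region length, which gives a density in RPKM by which members can be compared with each other. In young libraries the density over the TSS was highest at Prelp (2.15 ± 0.12) and Fmod (1.78 ± 0.05), whose libraries did not overlap. Omd (1.73 ± 0.33), Aspn (1.55 ± 0.35), Lum (1.40 ± 0.71), Ogn (1.26 ± 0.26), Dcn (1.17 ± 0.55) and Ecm2 (1.14 ± 0.08) followed, and none of these neighbours in the order differed beyond its spread. In old libraries Lum was last at 0.31 ± 0.18, below Dcn at 0.71 ± 0.11 in every library. Prelp and Omd were both at 1.48 in old libraries, with SDs of 0.45 and 0.18. Lum ranked among the other members in young libraries and below them in old libraries. That is a description, since the H3K27ac difference between ages at Lum chose the family. The old values of Lum rested on 14, 2 and 5 reads, and the count of old replicate 2 was under the floor of 3.

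H3K27me3 over the chromosome 10 genes was higher in old than in young libraries on average, but no member region passed the test. The mark covered the TSS of Dcn, Lum, Kera and Epyc and of no other member. Lum lay in the longest H3K27me3 region of its cluster (chr10:97542001-97571000, 29 kb), which reached from upstream of the gene into its body. The normalised signal there was 26.3, 36.6 and 69.3 in young and 67.5, 85.3 and 54.8 in old libraries. Young replicate 3 lay within the old range, so the groups overlapped, and the log2 fold change was 0.74 (SE 0.31, adjusted p = 0.336 by limma). Without young replicate 3 it was 1.12, with an adjusted p of 0.0355 by limma, and that call rested on leaving out this library.

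The other start sites of the cluster had weaker H3K27me3 signal and less spread. Kera (chr10:97605001-97614000) had a normalised signal of 8.69, 9.05 and 11.0 in young and 14.8, 18.2 and 13.3 in old libraries. All old libraries lay above all young libraries, with a log2 fold change of 0.66 (SE 0.19, adjusted p = 0.106 by limma). Epyc (chr10:97642501-97648500) had 5.14, 5.83 and 6.54 in young and 8.95, 13.1 and 7.29 in old libraries, also without overlap, and a log2 fold change of 0.66 (SE 0.24, adjusted p = 0.197 by limma). At Dcn a short region of 5.5 kb over the TSS (chr10:97478001-97483500) had 4.15, 6.24 and 8.37 in young and 8.73, 8.53 and 10.5 in old libraries. The gap at Dcn was narrow, and the log2 fold change was 0.57 (SE 0.24, adjusted p = 0.287 by limma).

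Across the chromosome 10 cluster 6 of 7 H3K27me3 regions were higher in old, with a median log2 fold change of 0.60 and a range from -0.02 to 0.74. Of all H3K27me3 regions 48.6% were higher, a share that the scaling between libraries largely sets. In 3 of the 7, those of Dcn, Kera and Epyc, all old libraries lay above all young libraries, as in 8.56% of all H3K27me3 regions. The opposite order, all old below all young, was found in 0 member regions and in 10.6% of all regions. At an adjusted p under 0.05, limma called 0 of the 12 member regions and 0.488% of all H3K27me3 regions. The count of member regions was also 0 by edgeR. DESeq2 called 0 as well, but it gave no adjusted p for the regions named for Dcn, Kera, Epyc, Fmod and Prelp. It could therefore not call those regions. At an unadjusted p under 0.05, limma passed 6 of the 12, of which 5 lay on chromosome 10, and 3894 of all 28047 regions.

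**Figure D2:**
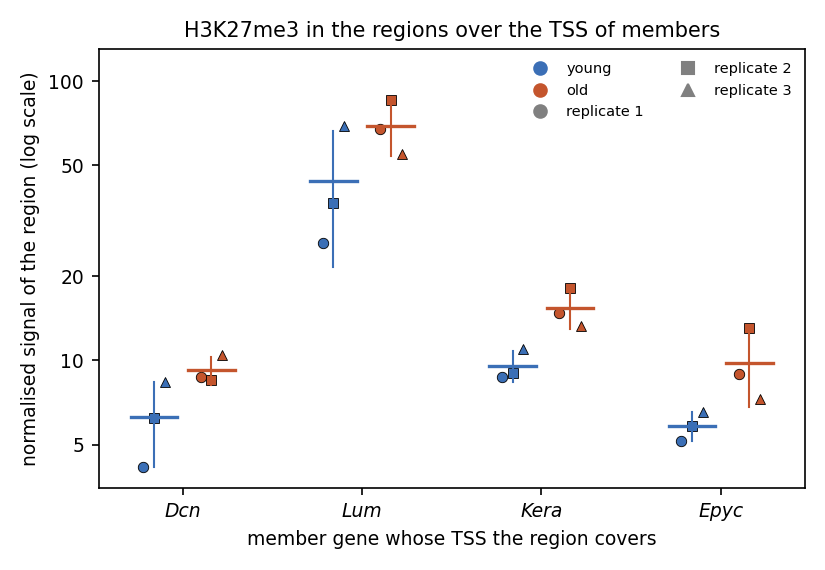
Normalised H3K27me3 signal (log axis) of the region over the TSS of the 4 chromosome 10 members, by library; blue marks are young and red marks old, the shape gives the replicate, and lines give the mean and SD of 3 libraries. At Dcn, Kera and Epyc the old libraries sit above the young ones, and at Lum young replicate 3 (69.3) lies among the old libraries (54.8 to 85.3).

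H3K27me3 near the chromosome 1 genes did not cover their start sites. The region nearest Fmod lay 10.3 kb upstream (chr1:134005001-134027000), with a normalised signal of 26.7, 32.4 and 37.7 in young and 31.4, 38.1 and 27.6 in old libraries and a log2 fold change of 0.01 (SE 0.15, adjusted p = 0.990 by limma). The region nearest Prelp covered the TSS of its neighbour Optc, which encodes opticin, another leucine-rich proteoglycan (chr1:133902001-133908000). It had 8.49, 7.44 and 8.63 in young and 8.73, 9.67 and 6.97 in old libraries, a log2 fold change of 0.03 (SE 0.21, adjusted p = 0.962 by limma). All 5 regions of the chromosome 1 cluster had values above 0, with a median of 0.23. Those nearest Fmod and Prelp were close to 0 and changed sign under other settings. In 2 of the 5 all old libraries lay above all young ones, as in 8.56% of all H3K27me3 regions. On chromosome 13 no H3K27me3 region was called within 50 kb of Ecm2, Aspn, Omd or Ogn, which says that none was listed and gives no signal to compare.

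The clusters were then compared as sums of normalised signal over their regions. H3K27ac of the chromosome 10 cluster summed to 200.2, 128.1 and 135.5 in young and 115.2, 79.4 and 88.2 in old libraries, a log2 difference of -0.70. Every old library lay below every young library, and young replicate 1 was the highest. On chromosome 13 the sums were 504.3, 455.8 and 425.6 in young and 442.8, 389.3 and 414.3 in old libraries, a log2 difference of -0.15 with overlap. On chromosome 1 they were 370.7, 407.4 and 359.8 in young and 349.2, 294.1 and 411.3 in old libraries, a log2 difference of -0.12 with overlap. The chromosome 13 sum included a region of 74.5 kb over the TSS of Ippk, with a mean of 186.6 in young and 173.6 in old libraries. Without regions over the TSS of other genes, the log2 differences were -0.74 on chromosome 10, -0.24 on chromosome 13 and -0.14 on chromosome 1.

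The difference between the chromosome 10 and 13 clusters was taken within each library, where scaling cancels. The log2 H3K27ac sum of chromosome 10 minus that of chromosome 13 was -1.33, -1.83 and -1.65 in young and -1.94, -2.29 and -2.23 in old replicates. All old libraries lay beyond all young ones, so the age difference of chromosome 10 relative to chromosome 13 was -0.55 on the log2 scale, without a test since this contrast chose the family. Against the chromosome 1 cluster the corresponding value was -0.58, and there old replicate 1 lay within the young range.

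For H3K27me3, the chromosome 10 sums were 56.3, 68.6 and 113.5 in young and 115.9, 146.7 and 100.8 in old libraries, a log2 difference of 0.66. Young replicate 3 was above old replicate 3, and the difference did not pass (exact permutation test, two-sided, p = 0.2, adjusted over 2 clusters 0.2, smallest possible p 0.1). The chromosome 1 sums were 102.9, 112.7 and 118.2 in young and 120.5, 146.2 and 113.2 in old libraries, a log2 difference of 0.18 (exact permutation test, two-sided, p = 0.2). The change of chromosome 10 relative to chromosome 1 was 0.48 and was also not resolved (exact permutation test, two-sided, p = 0.2). Young replicate 1 had the highest H3K27ac sum and the lowest H3K27me3 sum on chromosome 10. In a bulk sample, fewer cells that carry a mark and less mark per cell cannot be told apart.

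**Figure D3:**
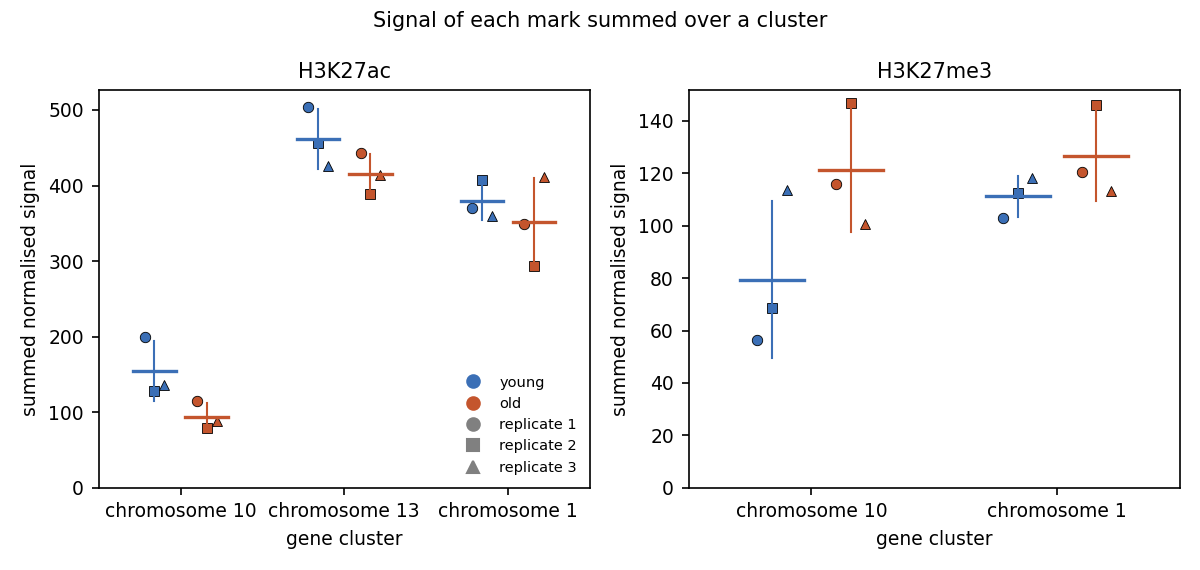
Normalised signal summed over the member regions of each cluster, by library, for H3K27ac (left) and H3K27me3 (right), with mean and SD of 3 libraries; no H3K27me3 region was called in the chromosome 13 cluster. The chromosome 10 cluster is the 1 cluster in which every old H3K27ac library (79.4 to 115.2) lies below every young library (128.1 to 200.2).

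The level of acetylation was also set side by side between the clusters. H3K27ac regions covered 23.1% of the chromosome 10 window, 64.7% of the chromosome 13 window and 47.5% of the chromosome 1 window. Within them the density in young libraries was 1.17 ± 0.40 RPKM on chromosome 10 and 1.37 ± 0.22 on chromosome 13 (SD, n = 3), and the libraries overlapped. In old libraries it was 0.64 ± 0.11 on chromosome 10 and 1.13 ± 0.11 on chromosome 13, without overlap. The log2 difference of chromosome 10 minus 13 was -0.27 in young and -0.82 in old libraries, and it is given as a description because it holds the age difference that chose the family.

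Regions of the marks overlapped each other on chromosomes 10 and 1. Of the H3K27ac regions, 4 of 13 on chromosome 10 overlapped an H3K27me3 region, 0 of 7 on chromosome 13 and 2 of 11 on chromosome 1, beside 15.7% of all H3K27ac regions. The shares are small counts and were not tested against each other. The whole H3K27ac region over Lum lay within its H3K27me3 region and took up 17.2% of it. At Dcn it was the reverse, and the H3K27me3 region lay within the broader H3K27ac region and took up 26.8% of it.

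Lower acetylation on chromosome 10 reached beyond the genes on the Dcn side. Within 1 Mb outside the window, 29 of 44 H3K27ac regions were lower in old, beside 50.4% of all H3K27ac regions. In 10 of the 44 all old libraries lay below all young ones, beside 7.42% of all regions, and the median log2 fold change was -0.13. Regions lower in old were 9 of 23 around chromosome 13 and 12 of 36 around chromosome 1. Around Lum, 21 consecutive H3K27ac regions were lower in old, a run that was singled out after its values were seen. It extended over 396.0 kb, from -271.6 kb to 124.4 kb relative to the Lum TSS, counted along the gene, with 12 regions inside the window and 9 outside it upstream of Dcn. Those 9 are among the 29 above and had log2 fold changes from -1.29 to -0.23. At the edge of the window, the outermost region inside it on the Dcn side had a log2 fold change of -0.79 and the next one outside -0.96. On the Epyc side these values were 0.09 inside and -0.17 outside, 646.9 kb from Lum. For H3K27me3, 6 of 15 flanking regions on chromosome 10 were higher in old, with a median of -0.09.

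**Figure D4:**
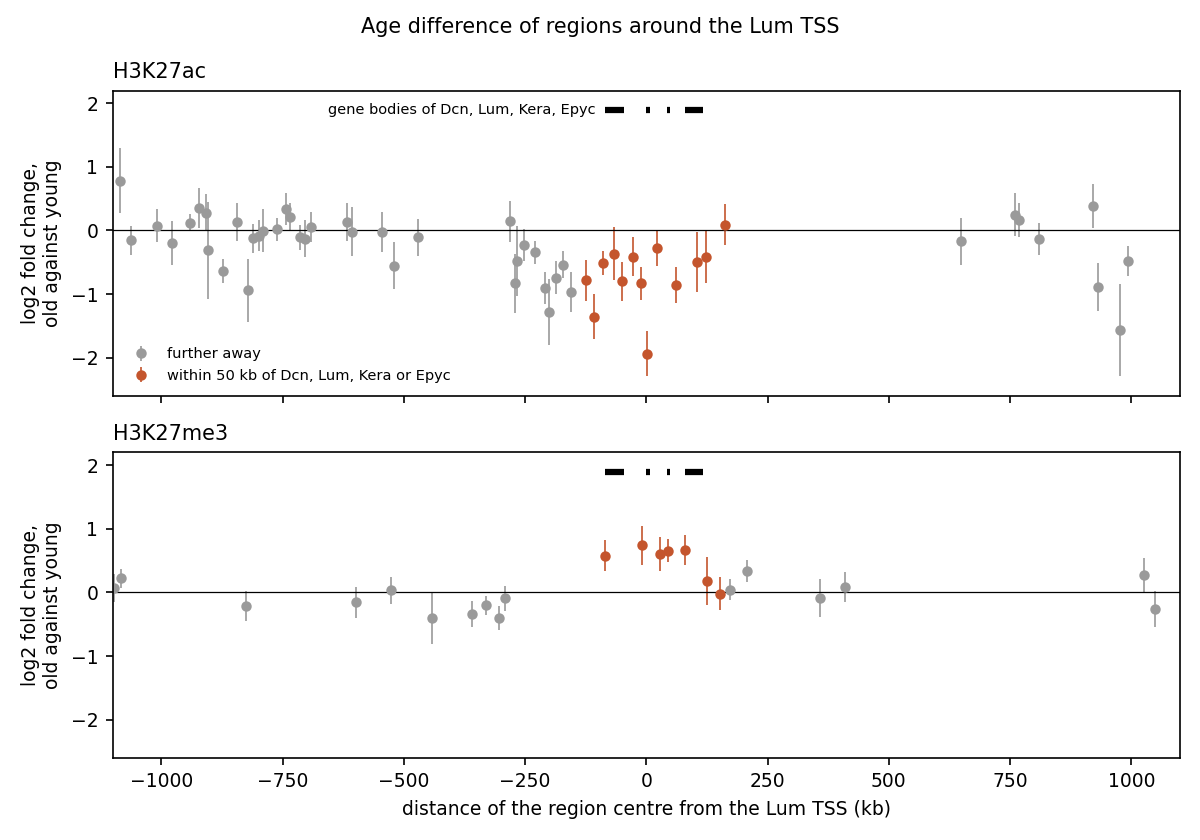
Fitted log2 fold change of old against young, with SE, of each H3K27ac (top) and H3K27me3 (bottom) region by the distance of its centre from the Lum TSS in kb; red points are regions within 50 kb of Dcn, Lum, Kera or Epyc, grey points lie further away, and black bars mark the gene bodies. H3K27ac values lie below 0 from -271.6 kb to 124.4 kb, with the lowest at Lum (-1.94), while the H3K27me3 values of 0.57 to 0.74 lie over or between the genes.

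Other genes of the matrix were described from lists. Of 8 further small leucine-rich proteoglycans, 4 carried H3K27ac over their TSS, namely Bgn, Tsku, Podn and Podnl1. Bgn, which encodes biglycan, the closest relative of decorin, had a normalised H3K27ac signal of 66.0 ± 7.20 in young and 59.5 ± 3.68 in old libraries (log2 fold change -0.15, SE 0.12, adjusted p = 0.740 by limma). Of the 14 H3K27ac regions nearest these 8 genes 9 were lower in old with a median of -0.15, and of 8 H3K27me3 regions 6 were higher with a median of 0.20. Limma and edgeR each called 0 of them in either mark. DESeq2 also called 0, but of the regions over a TSS it gave only that of Bgn an adjusted p. At an unadjusted p under 0.05 limma passed 2 of the 14 H3K27ac and 0 of the 8 H3K27me3 regions, beside 3035 of all 31617 H3K27ac regions. Of these, 2 H3K27ac and 2 H3K27me3 regions near Optc are also member regions of Prelp.

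Of 32 genes that build or process collagen fibrils, 29 carried H3K27ac over their TSS. Of the 76 regions nearest to them 37 were lower and 39 higher in old, with a median log2 fold change of 0.00. In 13 of the 76 all old libraries lay below all young ones, beside 7.42% of all H3K27ac regions. In 6 all old libraries lay above all young ones, beside 7.09%. Limma, edgeR and DESeq2 called 0 of them, and 11 of the 76 had an unadjusted p under 0.05 by limma, beside the 3035 of 31617 over all H3K27ac regions. DESeq2 gave some shorter regions near these genes, such as that over Tll1 in either mark, no adjusted p. Col1a1, a chain of type I collagen, had a normalised signal of 175.3 ± 11.6 in young and 197.4 ± 17.4 in old libraries, a log2 fold change of 0.17 (SE 0.08, adjusted p = 0.501 by limma). Lox, which crosslinks collagen, had 101.7 ± 2.39 and 86.3 ± 3.53 without overlap, a log2 fold change of -0.24 (SE 0.10, adjusted p = 0.413 by limma). Loxl1 of the same list went the other way, with 125.8 ± 11.4 and 147.7 ± 2.70 without overlap. Its log2 fold change was 0.23 (SE 0.09, adjusted p = 0.345 by limma). Loxl3 and Loxl4 were also higher in old on average, with overlap. Of the 18 H3K27me3 regions nearest these genes 10 were higher in old, limma, edgeR and DESeq2 called 0, and 1 had an unadjusted p under 0.05 by limma.

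Markers of cell types that make these proteoglycans were examined beside the members. The summed H3K27ac of the cartilage markers with a region over their TSS (4 of 4, Acan, Col2a1, Sox9 and Matn3) was 98.6 to 116.6 in young and 128.3 to 142.3 in old libraries, so that it was higher in old, opposite to the chromosome 10 cluster. Within that list Acan, the main proteoglycan of cartilage, had 20.1 ± 2.71 in young and 12.3 ± 2.53 in old libraries, and Col2a1, a collagen chain of cartilage, had 70.9 ± 15.0 and 99.0 ± 13.7. In both the ages did not overlap, and neither passed by limma (adjusted p = 0.216 for Acan and 0.138 for Col2a1). Col2a1 passed by edgeR (adjusted p = 0.0227) and not by DESeq2 (adjusted p = 0.286). The summed H3K27ac of tendon markers (2 of 3) was 128.6 to 150.0 in young and 134.5 to 161.0 in old libraries, that of osteoblast markers (1 of 4) 180.9 to 230.8 and 188.7 to 214.0, and that of fat markers (2 of 4) 93.7 to 114.8 and 81.5 to 109.3, each with overlap. For the MSC markers it was 1272 to 1379 in young and 1268 to 1356 in old libraries. Haematopoietic markers (2 of 8) summed to 107.9 to 116.6 and 92.8 to 109.1, and endothelial markers (1 of 5) to 6.53 to 8.22 and 7.17 to 11.0, also with overlap. The H3K27ac regions over Scx (tendon), Sp7 (osteoblast) and Cd68 (haematopoietic) also covered the TSS of other genes. The sums of these lists are therefore not those of the markers alone. Summed H3K27me3 over the TSS was lower in old without overlap for the endothelial markers (3 of 5, 359.4 to 374.0 in young and 316.0 to 356.0 in old libraries). For the fat markers (2 of 4) it was 35.41 to 35.95 in young and 25.02 to 35.36 in old libraries, lower by a very narrow gap. Among the single regions of these lists, those over Cdh5 and Plin1 were lower without overlap, as were 10.6% of all H3K27me3 regions. Those over Kdr, Tek and Adipoq overlapped between ages. For the cartilage markers (2 of 4) the H3K27me3 sum was 139.1 to 174.4 in young and 170.5 to 254.2 in old libraries, with overlap. Of the 8 regions nearest the cartilage genes 6 were higher in old. It overlapped between ages for the MSC markers (1 of 10, 8.69 to 10.2 and 8.51 to 13.6), the haematopoietic markers (3 of 8, 823.9 to 890.3 and 712.6 to 838.0), the tendon markers (1 of 3, 46.6 to 57.1 and 49.5 to 53.6) and the osteoblast markers (2 of 4, 92.8 to 109.9 and 89.3 to 124.6). The H3K27me3 regions over Cd3e and Itgam (haematopoietic) and Ibsp (osteoblast) also covered the TSS of other genes. The region over Cd3e, 201 kb long, had a mean of 742.1 in young and 665.0 in old libraries, most of its list's sum. These H3K27me3 sums are likewise not those of the markers alone. The part of cell composition in the values of the members was not tested.

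Across the 6 H3K27ac libraries, the TSS regions whose pattern was most like that of Lum were those of Mdm4 (r = 0.995), Eed (r = 0.990) and B3galnt1 (r = 0.990), out of 8774 candidate regions. Their own log2 fold changes were -0.38, -0.31 and -0.57, smaller than that of Lum. The likeness is Pearson's r of log2 values over libraries that share age and depth, and it is given as a description.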

How the data were processed

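CUT&RUN was performed on 12 libraries, and the groups came from the sample labels. The authors deposited, for each mark, a table with a signal value per called region and library. It is named RPKM, but every value is the read number scaled by the library total and a constant 0.5 kb, whatever the region's length, so whole reads were recovered (100% of values within 0.01 reads). The submitters' processing notes name Bowtie2, Picard and mm10 (GRCm38), and the peak caller is not given in the sources used here. The spike-in was not analysed here, and 0 columns of sample values were left unused. Regions were annotated with the basic set of GENCODE vM21, and promoter sequences came from RefSeq.

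The signal of each mark was scaled by the median of ratios (RLE), 0.5 was added, and log2 values of all regions were fitted with limma 3.58.1 (R 4.3.3) with trend and robust moderation. The test was two-sided, p-values were adjusted over all regions by the Benjamini-Hochberg method, and no filter was applied. Fold changes of regions with few reads are understated. The fit was tested on simulated data. Alternatives were the signal as deposited, TMM factors, pseudocounts of 0.1 and 2, plain limma, edgeR 4.0.16 and DESeq2 1.42.0 on the recovered reads, a minimum of 10 reads, other windows, a replicate block and leaving out each replicate. Relative to the main scaling, the signal as deposited shifted the median region from 0.00 to -0.12 in H3K27ac and from -0.01 to -0.13 in H3K27me3.

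The members and lists were chosen with earlier results of these data known. For each member the region over its TSS, or else the nearest one, was named, with called regions, regions that changed by at least 1 on the log2 scale without overlap, and the 3 TSS regions most like that of Lum (mean of at least 10 reads). A list was described by the regions nearest its genes within 50 kb, and its summed level by the regions over their TSS.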

Additional observations from a re-analysis of the deposited data

How the results depend on the processing

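The direction of age in the chromosome 10 cluster held under the alternatives run on it, and single calls did not. Of the values recomputed for the main comparisons, 170 stayed on their side of the threshold or, where there was no test, within the spread between replicates. A further 11 moved beyond that, and 5 passed a test threshold that the main value had not. Of the values for single regions 246 stayed, 8 changed sign and 1 passed a threshold that the main value had not. Within the spread between replicates, the H3K27ac value of the region near Kera turned to 0.14 without young replicate 1. The number of H3K27ac member regions called, a description since this contrast chose the family, was 1, became 2 on the signal as deposited, 0 with limma without trend and robust moderation and 0 with DESeq2, which gave the region of Lum no adjusted p, and ranged from 0 to 1 when each replicate was left out. The number of H3K27me3 member regions called was 0 and ranged from 0 to 1, with the 1 called without young replicate 3. With a window of 0 kb, which holds fewer regions, 5 H3K27ac regions of chromosome 10 were lower in old. The count in the window of 50 kb, which was 12 and was chosen as a result after seeing the data, ranged from 10 to 13 when each replicate was left out. The H3K27ac log2 difference of the chromosome 13 cluster moved to -0.27 on the signal as deposited. That of the chromosome 1 cluster moved to 0.15 as the median over regions and to -0.37 in a window of 0 kb, and ranged from -0.24 to 0.001 when each replicate was left out, with the highest value without old replicate 2. The cause was not tested. The H3K27ac density of chromosome 10 against 13, pooled over both ages, was -0.54 on the log2 scale (exact permutation p = 0.0625), and since it holds the age difference it was not used as a result. It was -0.27 in young libraries only (exact permutation p = 0.5) and -0.82 in old libraries only (exact permutation p = 0.25, the smallest that 3 libraries allow). When each replicate was left out it ranged from -0.65 to -0.46 (exact permutation p from 0.0625 to 0.125). It became -2.34 per kb of the whole window, -0.56, -0.55 and -0.54 with windows of 0, 10 and 100 kb, and -0.60 without regions over another TSS. These alternatives each gave p = 0.03125 by the exact permutation test, the smallest that 6 libraries allow. They pool both ages as well, so their p-values are no test of the clusters.

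Values close to 0 changed sign in 2 regions. The H3K27me3 region near Fmod gave -0.11 on the signal as deposited, -0.016 with edgeR and -0.010 with DESeq2, and ranged from -0.12 to 0.12 when each replicate was left out. The H3K27me3 region near Prelp gave -0.081 on the signal as deposited and ranged from -0.060 to 0.16 when each replicate was left out. Libraries with the same replicate number did not deviate together (correlations of 0.07, 0.02 and -0.05 in H3K27ac and 0.02, 0.04 and -0.08 in H3K27me3). With a replicate block, 1 H3K27ac and 0 H3K27me3 member regions were called and the H3K27me3 sum of chromosome 10 kept its difference of 0.66 (exact permutation p = 0.5), so no call changed. The H3K27me3 tests planned for the chromosome 13 cluster could not be fitted, because it holds no region. Depth limits the H3K27ac values of chromosome 10, which rest on 2 to 197 reads per library and region.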
